A study of Mus musculus with 18 samples.

Results

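The genes described here are the core of the Notch pathway as measured in differentiating muscle cells: the receptors Notch1, Notch2 and Notch3, the ligands Jag1, Jag2 and Dll1, the effectors Hes1, Hey1 and Heyl, and the DNA-binding mediator Rbpj. All 10 were found on the array as probe sets with a single gene symbol, among 22180 genes tested, and where a gene had more than 1 probe set the brightest by mean over the 18 arrays was used. Notch is a receptor that signals between touching cells: a ligand on one cell binds it on the next, proteases of the ADAM family and then gamma-secretase cut it, and the freed intracellular domain joins Rbpj and Mastermind proteins on DNA to switch on the Hes and Hey repressors. Without that domain Rbpj sits with corepressors on the same genes. In skeletal muscle the pathway is known for holding satellite cells and myoblasts back from differentiation.

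Expression was measured with 1-colour arrays in C2C12, an established mouse myoblast line that forms multinucleate myotubes when serum is lowered. Cells kept in medium with 20% fetal bovine serum were shifted to 2% horse serum, infected 36 h later with shRNA virus, and collected 48 h after infection. All 18 arrays come from infected cells of this line: 6 received a control shRNA titled as scramble, 6 received one directed at Nup210, a membrane nucleoporin, and 6 received one directed at Mef2c, a transcription factor of muscle differentiation. Neither the hairpin sequences nor separate cultures for the 6 arrays of each group are stated in the labels, so a p-value here covers only the spread among these samples, possibly technical. In bulk samples of this kind, fewer cells of a type and less RNA per cell cannot be told apart.

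The targeted genes were read first. Mef2c averaged 7.91 ± 0.21 (SD, n = 6) on the log2 scale in the Mef2c shRNA arrays and 10.39 ± 0.16 in controls, 17.9% of the control level. The mean of Nup210 was 5.65 ± 0.11 with its own shRNA and 5.75 ± 0.09 with the control shRNA (adjusted p = 0.402). It was 5.88 ± 0.12 with Mef2c shRNA, from which the Nup210 shRNA arrays differed by -0.23 (adjusted p = 0.0178), with all 6 below the Mef2c shRNA mean. The ranges of those 2 shRNA groups overlapped. All 6 Mef2c shRNA arrays were above the control mean of Nup210, by 0.13 on average (adjusted p = 0.232). On this dim probe set the arrays labelled Nup210 shRNA were thus called lower than the Mef2c shRNA arrays but not lower than the controls. A knockdown of Nup210 against control is not shown by these values. Pairs of arrays from the same group had r of 0.991 to 0.995 over genes. Adjusted p here always means limma's moderated test over all 22180 genes with Benjamini-Hochberg adjustment, and a gene is said to rise or fall only where that value is under 0.05. All 10 Notch genes averaged above 5.47, the 95th percentile of 1394 olfactory and vomeronasal receptor genes, which serves as a guide to background.

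In the Mef2c shRNA arrays 7 of the 10 genes fell and none rose: Heyl, Jag1, Hes1, Hey1, Notch1, Notch3 and Jag2. Heyl fell furthest, to 72.7% of control, and Notch3 and Jag2 least among the 7, to 86.9% and 87.5%. In the Nup210 shRNA arrays only Jag1 passed the test, and it rose to 130% of control. Over all genes tested, 10.8% were called in the Mef2c comparison (4.34% higher and 6.42% lower) and 8.16% in the Nup210 comparison (3.05% higher and 5.11% lower). All 10 Notch genes averaged above the background guide. With dim genes, those not above that guide, left out, 23.2% and 18.1% of the remaining genes were called. In that fit 8 of the 10 (7 lower and 1 higher) and 2 of the 10 (both higher) were called. The median log2 difference of the 10 genes was -0.24 for Mef2c shRNA and 0.04 for Nup210 shRNA, beside medians over all genes of 0.02 and 0.02. Without control arrays 4 and 6, which an earlier look at these data had singled out, 4 of the 10 fell with Mef2c shRNA (Notch1, Notch3, Hes1 and Heyl) and 6.4% of all genes were called. Without Nup210 shRNA arrays 2, 4 and 5, those of lowest array weight, none passed in the Nup210 comparison and 2.54% of all genes were called. Control arrays 4 and 6 had array weights of 0.94 and 1.04, which were not among those lowest weights.

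**Figure D1:**
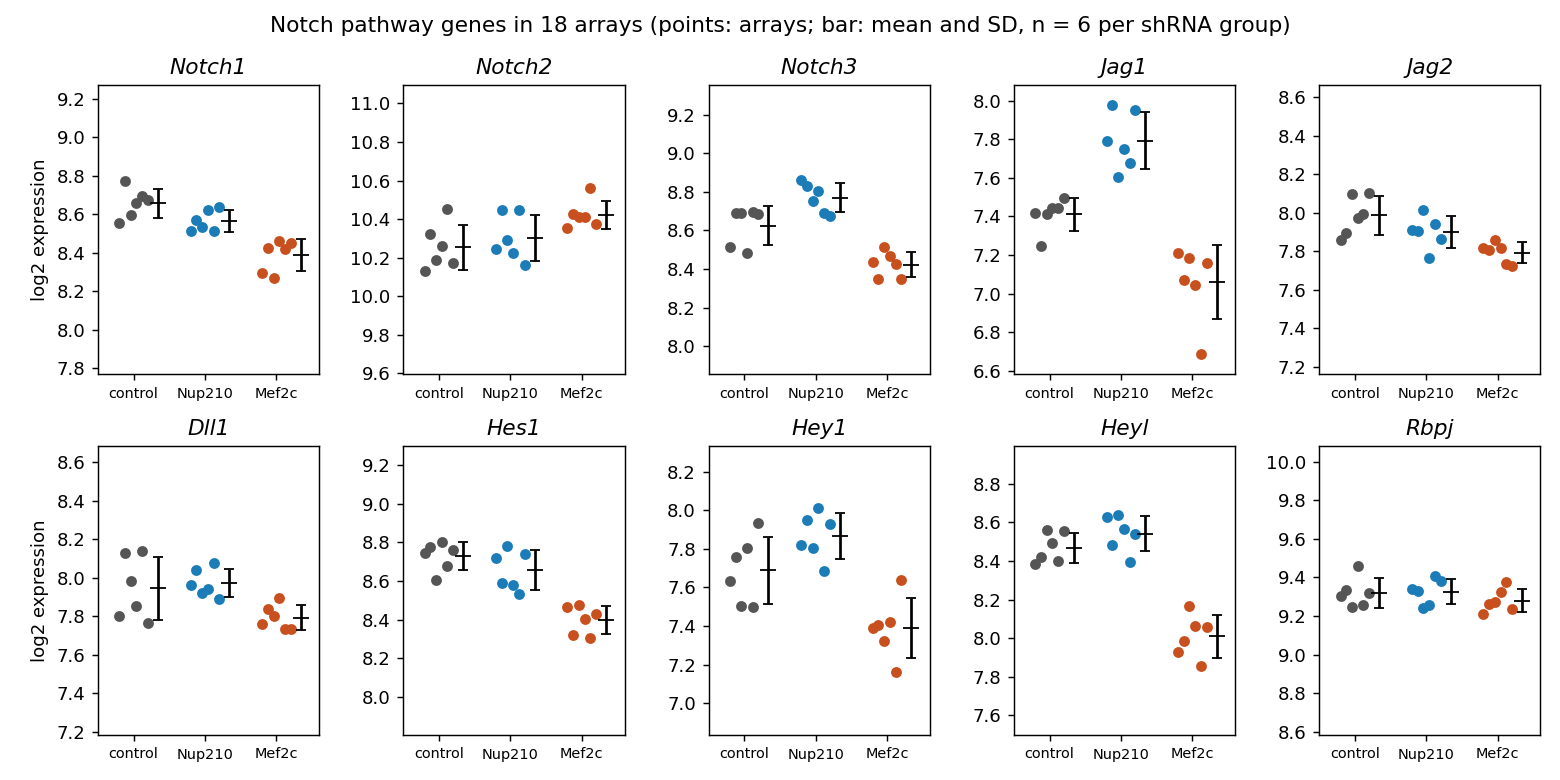
Log2 expression of the 10 Notch pathway genes (vertical axis, the same span in every panel) in each of 18 arrays, by shRNA group on the horizontal axis; points are arrays and bars the mean and SD of 6. Jag1 separates all 3 groups, Heyl and Hes1 set the Mef2c shRNA arrays apart from both other groups, and Rbpj shows full overlap.

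The receptors did not move together. Notch1, a receptor with a known part in keeping satellite cells undifferentiated, ran from 8.55 through a median of 8.66 to 8.77 in the control arrays, from 8.51 through 8.55 to 8.64 in the Nup210 shRNA arrays and from 8.27 through 8.42 to 8.46 in the Mef2c shRNA arrays. Every Mef2c shRNA array lay below every control array, while the Nup210 shRNA range overlapped that of the controls. Notch1 fell by 0.27 ± 0.047 (SE) on the log2 scale with Mef2c shRNA (adjusted p = 0.000769). With Nup210 shRNA it differed by -0.09 (95% interval -0.19 to 0.01, adjusted p = 0.289), although all 6 arrays were below the control mean.

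Notch3, a receptor expressed in satellite cells and in vascular smooth muscle, ran from 8.48 through 8.69 to 8.69 in controls, from 8.68 through 8.78 to 8.86 with Nup210 shRNA and from 8.35 through 8.43 to 8.51 with Mef2c shRNA. Controls 1 and 4 were low and reached into the Mef2c shRNA range, and 4 of the 6 Nup210 shRNA arrays lay above every control. It fell by 0.20 ± 0.051 with Mef2c shRNA (adjusted p = 0.014), and with Nup210 shRNA stood 0.14 above control without passing (adjusted p = 0.1). The 2 shRNA groups did not overlap, and set directly against each other they differed by 0.35 ± 0.051, a ratio of 1.27 (adjusted p = 9.97e-05).

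Notch2, the receptor that did not fall with Mef2c shRNA, ran from 10.13 through 10.22 to 10.45 in controls, from 10.16 through 10.27 to 10.45 with Nup210 shRNA and from 10.36 through 10.41 to 10.56 with Mef2c shRNA. All 6 Mef2c shRNA arrays were above the control mean, but control array 5 stood within their range. The log2 difference was 0.17 (95% interval 0.04 to 0.30) and missed the threshold (adjusted p = 0.0933); it passed without control array 5 (adjusted p = 0.0291), with dim genes left out (0.0458) and with the trended robust prior (0.0394). With Nup210 shRNA it was 0.05 (adjusted p = 0.731). Notch4, the remaining receptor of the family, passed no comparison.

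Among the ligands, Jag1 was the member that separated all 3 groups. Jag1 encodes a transmembrane ligand of the Serrate type that presents itself to Notch on neighbouring cells. It ran from 7.25 through 7.43 to 7.50 in controls, from 7.60 through 7.77 to 7.98 in the Nup210 shRNA arrays, and from 6.69 through 7.12 to 7.21 in the Mef2c shRNA arrays. No 2 groups overlapped, with the Nup210 shRNA arrays highest and the Mef2c shRNA arrays lowest. Jag1 rose by 0.38 ± 0.083 with Nup210 shRNA (adjusted p = 0.00677) and fell by 0.35 ± 0.083 with Mef2c shRNA, to 78.4% of control (adjusted p = 0.00907). The control arrays are shared by those comparisons; the direct one, which does not use them, gave a log2 difference of 0.73 ± 0.083, a ratio of 1.66 (adjusted p = 7.08e-06). Both calls against control had limits: the rise did not pass when Nup210 shRNA arrays 2, 4 and 5 were omitted (0.37, adjusted p = 0.0782), and the fall without control arrays 4 and 6 (-0.32, adjusted p = 0.0611).

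Jag2, the second Serrate-type ligand, ran from 7.86 through 7.98 to 8.10 in controls, from 7.77 through 7.91 to 8.01 with Nup210 shRNA and from 7.73 through 7.81 to 7.86 with Mef2c shRNA. The highest Mef2c shRNA array and the lowest control met at 7.86. Jag2 fell by 0.19 ± 0.050 with Mef2c shRNA (adjusted p = 0.0174), which did not hold when control arrays 4 and 6 were omitted (adjusted p = 0.0959), and differed by -0.09 with Nup210 shRNA (adjusted p = 0.367). Unlike Jag1, it was not called between the 2 shRNA groups (0.11, 95% interval 0.00 to 0.21, adjusted p = 0.204).

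Dll1, a Delta-type ligand known in muscle as the signal that keeps progenitors from differentiating, ran in the controls from 7.77 through 7.92 to 8.14. It ran from 7.89 through 7.95 to 8.07 with Nup210 shRNA and from 7.73 through 7.78 to 7.89 with Mef2c shRNA. The Mef2c shRNA arrays were all below the control mean, but each pair of groups overlapped. It passed no comparison: the log2 difference was 0.03 for Nup210 shRNA (adjusted p = 0.883) and -0.15 for Mef2c shRNA (95% interval -0.29 to -0.02, adjusted p = 0.146), and 0.18 between the shRNA groups (adjusted p = 0.0732). Its dimmer probe set gave -0.05 and -0.08, also without passing. The other ligands and ligand-like genes Dll3, Dll4, Dlk1 and Dlk2 passed neither comparison with control, and Dll3 and Dll4 averaged below the background guide.

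**Figure D2:**
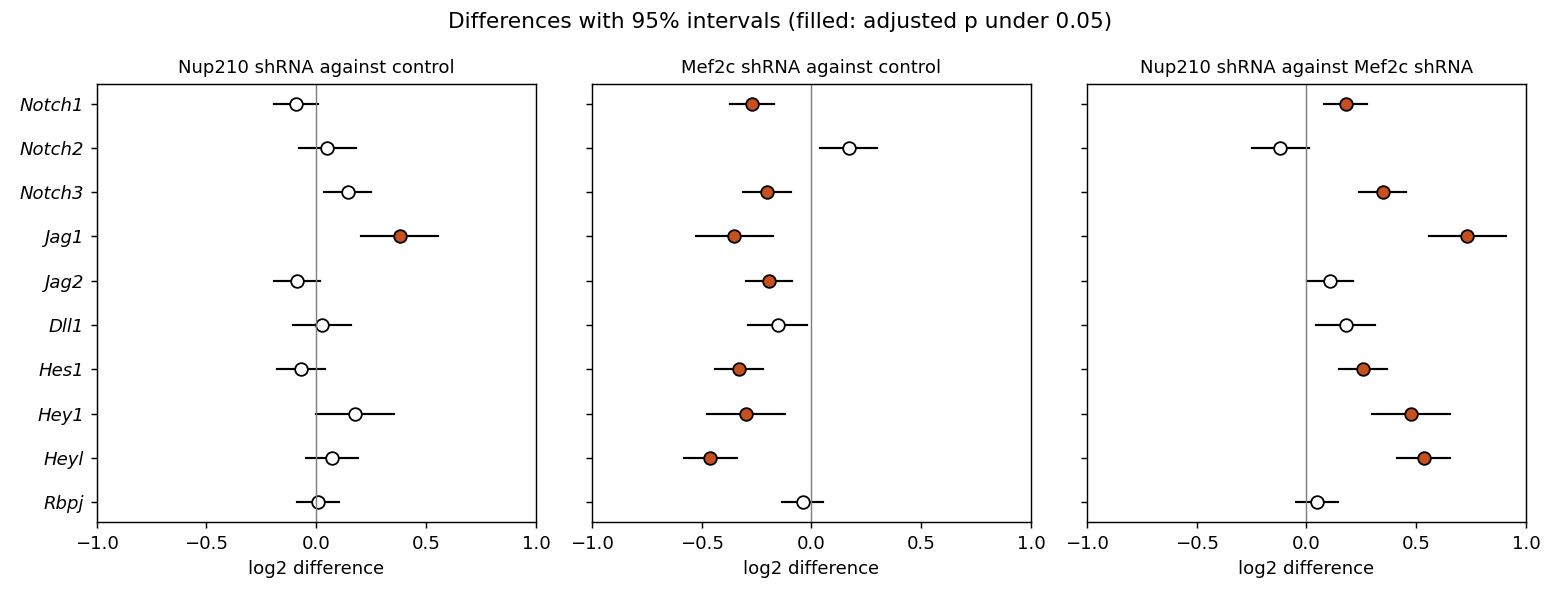
Log2 difference (horizontal axis) of each Notch pathway gene (vertical axis) in 3 comparisons, with the 95% interval of the fit; filled points passed an adjusted p under 0.05. With Mef2c shRNA 7 points are filled, all to the left of 0, with Nup210 shRNA Jag1 alone is filled, and Jag1 has the largest direct difference of the 10, 0.73.

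The effectors Heyl, Hes1 and Hey1 were all called lower with Mef2c shRNA and none was called with Nup210 shRNA. Heyl, a Hey-family repressor known as a Notch target in satellite cells, ran from 8.39 through 8.46 to 8.56 in controls and from 8.40 through 8.55 to 8.64 with Nup210 shRNA, but from 7.86 through 8.02 to 8.17 with Mef2c shRNA. The Mef2c shRNA arrays all lay below both other groups, which overlapped each other. Heyl fell by 0.46 ± 0.057 with Mef2c shRNA (adjusted p = 3.05e-05) and differed by 0.07 with Nup210 shRNA (95% interval -0.05 to 0.19, adjusted p = 0.535). Between the shRNA groups the ratio was 1.45 (log2 difference 0.53, adjusted p = 3.76e-06).

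Hes1, the repressor most widely used as a readout of Notch activity, ran from 8.61 through 8.75 to 8.80 in controls, from 8.53 through 8.66 to 8.78 with Nup210 shRNA and from 8.30 through 8.41 to 8.48 with Mef2c shRNA. Again the Mef2c shRNA arrays lay apart from both other groups. Hes1 fell by 0.33 ± 0.052 with Mef2c shRNA, to 79.6% of control (adjusted p = 0.000315). It differed by -0.07 with Nup210 shRNA (adjusted p = 0.497).

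Hey1, a repressor of the same family as Heyl, was more spread: it ran from 7.50 through 7.70 to 7.93 in controls, from 7.68 through 7.87 to 8.01 with Nup210 shRNA and from 7.16 through 7.40 to 7.64 with Mef2c shRNA. Mef2c shRNA array 6 stood among the controls, and the other Mef2c shRNA arrays were below all of them. Hey1 fell by 0.30 ± 0.085 with Mef2c shRNA (adjusted p = 0.0281). The Hey1 call ended when Mef2c shRNA array 3 (adjusted p = 0.0565), Mef2c shRNA array 5 (0.0702), control array 2 (0.0585), control array 4 (0.0676) or control array 6 (0.0724) was omitted, and with control arrays 4 and 6 both omitted the difference was -0.21 (adjusted p = 0.189). It also ended with only the 2 groups in the fit (0.0524) and in the unequal-variance test (0.0821). With Nup210 shRNA Hey1 stood 0.18 above control (adjusted p = 0.246), and the shRNA groups differed directly by 0.48 ± 0.085 without overlap (adjusted p = 0.000598).

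Rbpj, the DNA-binding protein through which all Notch receptors act, showed full overlap. It ran from 9.25 through 9.31 to 9.46 in controls, from 9.24 through 9.34 to 9.41 with Nup210 shRNA and from 9.21 through 9.27 to 9.38 with Mef2c shRNA. The log2 differences were 0.01 (95% interval -0.09 to 0.10) and -0.04 (95% interval -0.13 to 0.05), with adjusted p of 0.962 and 0.667. RefSeq lists Rbpj pseudogenes in mouse, and the probe set used is uncertain for that reason; the other, dimmer probe set gave -0.03 and -0.04, also without passing.

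Across the 10 genes the direct comparison of the shRNA groups called 6, all higher with Nup210 shRNA: Jag1, Heyl, Hey1, Notch3, Hes1 and Notch1, in descending order of the log2 difference. Over all genes 14% were called there, 7.1% higher and 6.93% lower. The group ranges did not overlap for those 6 genes, against 8.62% of all genes; for Mef2c shRNA against control they did not overlap for 5 of the 10, against 7.74%, and for Nup210 shRNA against control for Jag1, against 5.63%. Without Nup210 shRNA arrays 2, 4 and 5 the direct comparison called 5 of the 10, Notch1 being lost (adjusted p = 0.084). With dim genes left out it called 7 of the 10, Dll1 being added (adjusted p = 0.0346), and 27.9% of the remaining genes. The shares without overlap given above are over all genes, dim ones included.

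**Figure D3:**
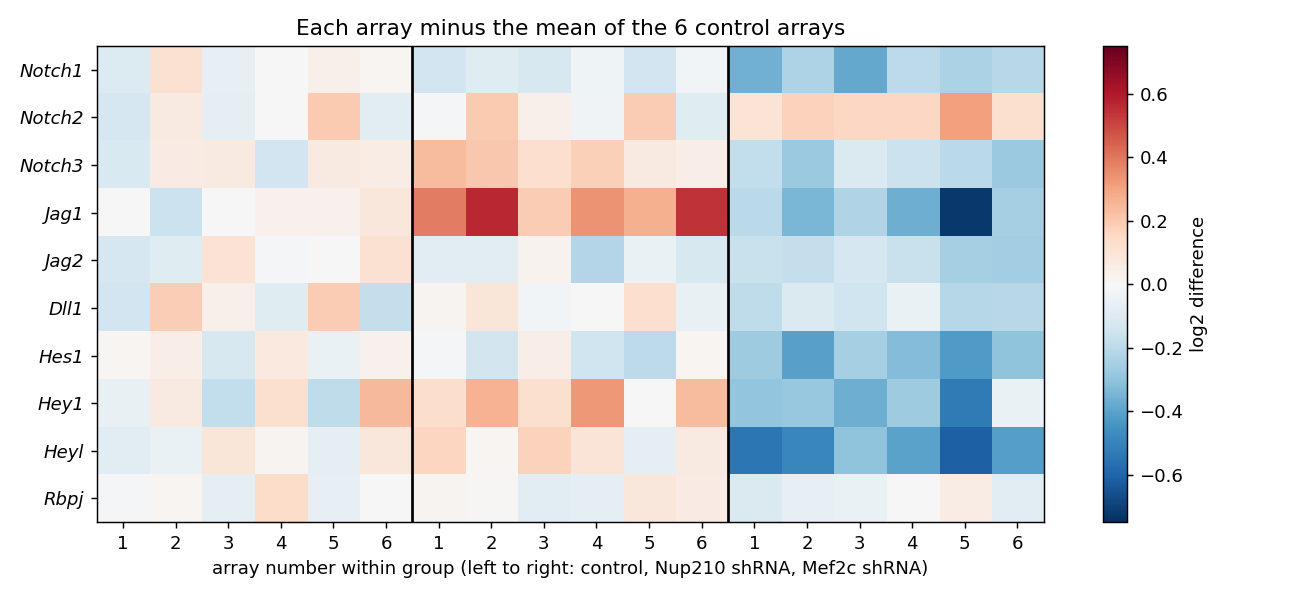
Each array's log2 value minus the mean of the 6 control arrays (colour, red above and blue below) for the 10 genes (rows) in 18 arrays (columns, 6 per group). The Mef2c shRNA block is blue in every column for Notch1, Notch3, Jag1, Jag2, Dll1, Hes1, Hey1 and Heyl and red for Notch2; the Nup210 shRNA block is red in every column for Notch3 and Jag1.

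Promoters in RefSeq's GRCm38.p6 sequences were matched for 7 of the 10 genes: Notch1, Notch2, Notch3, Jag1, Jag2, Dll1 and Rbpj; Hes1, Hey1 and Heyl were not matched. The windows below cover the 250 bases before the gene start, written 5′ to 3′ on the gene's strand, for the receptors and ligands called lower with Mef2c shRNA and for Rbpj, which was not called. Capitals mark 2 motifs on either strand: the E-box letters CANNTG, to which basic helix-loop-helix factors such as MyoD bind, and the Rbpj core TGGGAA, which reads TTCCCA on the other strand.
Jag1, chr2:137116521-137116770, strand -: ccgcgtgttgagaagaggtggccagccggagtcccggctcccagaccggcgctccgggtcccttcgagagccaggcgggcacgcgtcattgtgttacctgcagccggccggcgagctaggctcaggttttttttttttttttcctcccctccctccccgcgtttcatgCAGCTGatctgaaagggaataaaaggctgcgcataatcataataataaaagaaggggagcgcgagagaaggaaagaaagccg
Notch1, chr2:26503823-26504072, strand -: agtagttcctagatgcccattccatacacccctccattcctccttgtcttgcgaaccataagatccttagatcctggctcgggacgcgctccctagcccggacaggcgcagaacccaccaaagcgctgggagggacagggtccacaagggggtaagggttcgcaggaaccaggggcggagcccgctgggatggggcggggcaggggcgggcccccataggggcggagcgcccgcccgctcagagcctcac
Notch3, chr17:32166891-32167140, strand -: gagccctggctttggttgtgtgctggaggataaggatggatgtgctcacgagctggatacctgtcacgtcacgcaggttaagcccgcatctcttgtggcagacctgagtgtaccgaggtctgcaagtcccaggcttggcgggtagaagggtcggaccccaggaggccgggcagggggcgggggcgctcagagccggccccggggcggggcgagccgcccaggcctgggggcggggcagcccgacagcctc
Jag2, chr12:112929496-112929745, strand -: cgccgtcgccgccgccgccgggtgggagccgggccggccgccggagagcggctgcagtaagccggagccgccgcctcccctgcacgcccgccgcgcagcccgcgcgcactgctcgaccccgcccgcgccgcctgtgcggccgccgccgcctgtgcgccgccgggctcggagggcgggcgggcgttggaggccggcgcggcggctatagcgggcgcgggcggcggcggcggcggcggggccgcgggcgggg
Rbpj, chr5:53590096-53590345, strand +: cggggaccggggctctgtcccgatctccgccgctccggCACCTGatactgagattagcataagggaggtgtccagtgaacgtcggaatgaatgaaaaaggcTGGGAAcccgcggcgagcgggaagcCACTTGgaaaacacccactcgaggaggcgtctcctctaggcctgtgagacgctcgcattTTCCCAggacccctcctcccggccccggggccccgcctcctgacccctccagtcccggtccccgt
Jag1, the gene called in both comparisons with control, holds an E-box match, CAGCTG, starting 82 bases before the gene start, while the windows of Notch1, Notch3 and Jag2 hold neither motif. Rbpj, for which the first of 2 starts is shown, holds the Rbpj core at 149 and 65 bases before the start and E-box letters at 212 and 124. No match of one motif overlaps a match of the other in the windows printed. E-box letters are in 66.2% of all 32841 windows of this length, the Rbpj core in 21.6%, and the MEF2 consensus in 2.92%. Over the 7 matched genes, 3 hold E-box letters (Jag1, Dll1 and Rbpj), 1 the Rbpj core and 0 the MEF2 consensus. A match is a description of these letters only.

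Around the 10 genes, 60 of 63 other listed genes of the pathway were measured. With Mef2c shRNA 4 of the 60 rose and 9 fell, 21.7% called beside the 10.8% of all genes. With Nup210 shRNA 6 rose and 5 fell, 18.3% beside 8.16%. Most of the 60 averaged above the background guide. With dim genes left out, 23.2% and 18.1% of the remaining genes were called, close to the shares of the 60. The median log2 differences of the 60 were 0.03 and 0.01. In the Hes and Hey family with Nrarp, the 7 measured genes beyond Hes1, Hey1 and Heyl had 1 fall with Mef2c shRNA, of Nrarp, a small feedback inhibitor induced by Notch (-0.27 ± 0.070, adjusted p = 0.0181). Nrarp averaged 5.41 there and 5.67 in controls, close to the background guide of 5.47. Its call ended when control arrays 4 and 6 were omitted (adjusted p = 0.0724), in the unequal-variance test (0.114) and with only the 2 groups in the fit (0.0529); between the shRNA groups it differed by 0.35 (adjusted p = 0.00188, and 0.0545 in the unequal-variance test). Hes5 was the family's call with Nup210 shRNA (0.27, adjusted p = 0.0421), and 21 of 30 alternatives ended it, with adjusted p to 0.448 (0.17 without Nup210 shRNA arrays 2, 4 and 5); with its probe sets averaged the difference was 0.11 (adjusted p = 0.235). Omitting any one of Nup210 shRNA arrays 2, 4, 5 and 6, Mef2c shRNA arrays 1, 2 and 3 and control arrays 2 to 6 was enough. With Mef2c shRNA too Hes5 stood above control, by 0.21, without passing (adjusted p = 0.0947). All 6 Mef2c shRNA arrays were above its control mean. Hes6, a family member that promotes rather than restrains myogenesis, passed neither comparison with control.

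Calls among the genes that cut, glycosylate and sort the receptor went in both directions. Beside them, 4.34% of all genes were called higher and 6.42% lower with Mef2c shRNA, and 3.05% and 5.11% with Nup210 shRNA. With dim genes left out, 23.2% and 18.1% of the remaining genes were called, counting both directions. Adam17, one of the proteases that sheds the Notch ectodomain, differed by -0.32 ± 0.052 with Mef2c shRNA (adjusted p = 0.000449) and by -0.28 ± 0.052 with Nup210 shRNA (adjusted p = 0.00195, and 0.0635 when Nup210 shRNA arrays 2, 4 and 5 were omitted), comparisons that share their controls. With Mef2c shRNA the gamma-secretase subunit Psen2 rose by 0.21 (adjusted p = 0.003). Of 6 glycosylation genes, Eogt, which adds N-acetylglucosamine to Notch repeats, fell by 0.28 with Mef2c shRNA (adjusted p = 0.0022) and differed by 0.41 between the shRNA groups (adjusted p = 3.83e-05). Among 14 trafficking and ubiquitination genes 3 fell with Mef2c shRNA: Numbl (-0.32 ± 0.055, adjusted p = 0.000747) and Numb (-0.20, adjusted p = 0.0255), both of the Numb family of endocytic Notch inhibitors, and the ubiquitin ligase Nedd4 (-0.14, adjusted p = 0.0111). The Numb call ended when Mef2c shRNA array 5 (adjusted p = 0.0586) or array 6 (0.0613), control array 3 (0.063) or array 6 (0.0528), or control arrays 4 and 6 (0.0747) were omitted. The Deltex genes Dtx2 and Dtx3 rose by 0.22 (adjusted p = 0.00496) and 0.19 (adjusted p = 0.00803), and Dtx2 differed by -0.24 with Nup210 shRNA against Mef2c shRNA (adjusted p = 0.00169).

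With Nup210 shRNA the calls among the other pathway genes included coactivators and the turnover of the receptor. Maml3, a Mastermind coactivator of Notch, fell by 0.29 ± 0.069 (adjusted p = 0.0116, and 0.061 in the unequal-variance test) and differed by -0.37 from its level with Mef2c shRNA (adjusted p = 0.000881). Aak1, a kinase that phosphorylates Numb, fell by 0.29 ± 0.055 (adjusted p = 0.00218) and differed by -0.46 from its level with Mef2c shRNA (adjusted p = 1.18e-05). Fbxw7, a ubiquitin ligase subunit that marks the Notch intracellular domain for breakdown, fell by 0.35 (adjusted p = 0.0347). The remaining calls, of smaller size, were those of the coactivator Maml2 (-0.20, adjusted p = 0.0417), the gamma-secretase subunit Aph1a (0.14, adjusted p = 0.0237) and the fucosyltransferase Pofut1 (0.19, adjusted p = 0.0236).

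Of 30 alternatives, 12 ended the call of Fbxw7, 15 that of Maml2, 9 that of Aph1a and 10 that of Pofut1. Single arrays whose omission was enough were Nup210 shRNA 2, 4 and 5 and control 1, 2, 3, 4 and 6 for Fbxw7 (adjusted p from 0.0545 to 0.0886); Nup210 shRNA 1, 2, 3, 4 and 6, Mef2c shRNA 2 and 3 and control 1, 2, 3 and 5 for Maml2 (0.0504 to 0.0928); Nup210 shRNA 2 and 5 and control 1 and 3 for Aph1a (0.0526 to 0.0625); and Nup210 shRNA 1 and control 1, 3 and 6 for Pofut1 (0.0539 to 0.0588). With Nup210 shRNA arrays 2, 4 and 5 omitted together, Fbxw7 differed by -0.20 (adjusted p = 0.452), Maml2 by -0.22 (0.162), Aph1a by 0.11 (0.294) and Pofut1 by 0.20 (0.156). With all its probe sets averaged, Aph1a differed by 0.022 (adjusted p = 0.882). In the nuclear complex, of which 9 genes besides Rbpj were measured, Maml2 and Maml3 were the calls with Nup210 shRNA, and with Mef2c shRNA 1 rose, Ep300, an acetyltransferase coactivator (0.17, adjusted p = 0.0137, and 0.0567 with control arrays 4 and 6 omitted). Over all genes 8.16% were called with Nup210 shRNA and 10.8% with Mef2c shRNA.

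Beyond the Hes and Hey genes, 12 other reported Notch targets had no rise and 4 falls with Mef2c shRNA: Nrarp, given above, Myc, Col5a1 and Col5a3. Over all genes 4.34% were called higher and 6.42% lower with Mef2c shRNA. With dim genes left out, 23.2% of the remaining genes were called there, counting both directions. Myc, a growth-promoting transcription factor, fell by 0.26 ± 0.051 (adjusted p = 0.00251). The fibrillar collagens Col5a1 and Col5a3 fell by 0.29 (adjusted p = 0.00123) and 0.42 (adjusted p = 0.0126). Col5a1 lost its call when all its probe sets were averaged (-0.14, adjusted p = 0.0691), and Col5a3 lost its call without control arrays 4 and 6 (0.0533) and in the unequal-variance test (0.0642). With Nup210 shRNA 3 of the 12 rose and none fell: Myc by 0.35 ± 0.051 (adjusted p = 0.000226), Snai2, a zinc-finger repressor, by 0.33 ± 0.066 (adjusted p = 0.00368) and Id3, an inhibitor of MyoD partners, by 0.60 ± 0.15 (adjusted p = 0.0142). Over all genes 3.05% were called higher and 5.11% lower with Nup210 shRNA. With dim genes left out, 18.1% of the remaining genes were called there, counting both directions. Snai2 and Id3 did not pass with Nup210 shRNA arrays 2, 4 and 5 omitted (0.23 and 0.33, adjusted p = 0.113 and 0.313), and Id3 also without control arrays 4 and 6 (0.0862) and in the unequal-variance test (0.087). With Mef2c shRNA too Id3 stood above control, by 0.44, without passing (adjusted p = 0.0617). All 6 Mef2c shRNA arrays were above its control mean. Myc, like Jag1, rose in one comparison and fell in the other, and the shRNA groups differed by 0.61 ± 0.051, a ratio of 1.53 (adjusted p = 2.45e-07). Many of these genes are known to have other regulators as well.

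**Figure D4:**
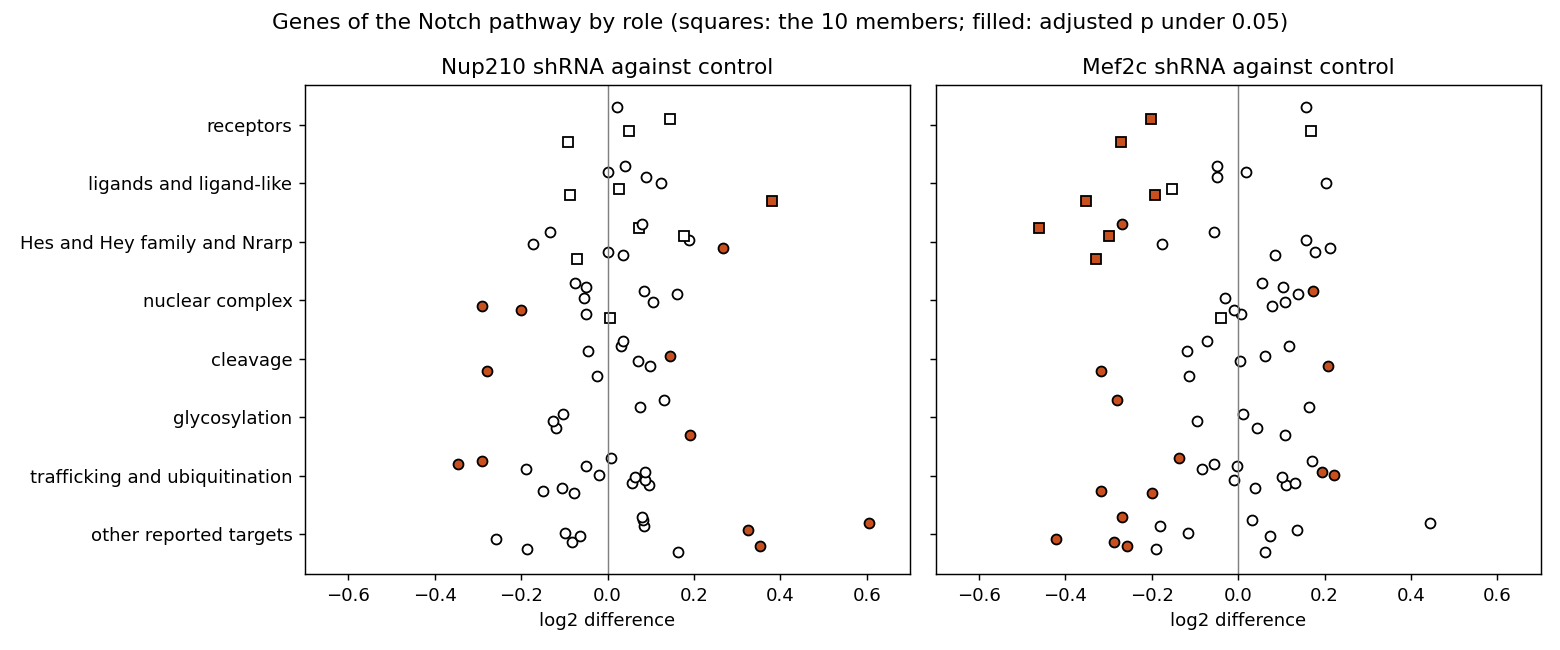
Log2 difference from control (horizontal axis) of the measured Notch pathway genes grouped by role (vertical axis), with Nup210 shRNA on the left and Mef2c shRNA on the right; squares are the 10 core genes, circles the other genes, and filled symbols passed an adjusted p under 0.05. On the right the filled squares all lie below 0, from -0.46 for Heyl to -0.19 for Jag2, while the filled circles lie on both sides.

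Marker lists of muscle cell state had median log2 differences near 0. With Mef2c shRNA and Nup210 shRNA they were -0.02 and -0.04 for the 10 myotube markers. For the 7 reserve cell and myoblast markers they were 0.06 and 0.03. Of the 10 myotube markers 2 and 3 were called, beside 10.8% and 8.16% of all genes. With dim genes left out, 23.2% and 18.1% of the remaining genes were called. With Mef2c shRNA 2 of 10 myotube markers fell and none rose, the embryonic myosin heavy chain Myh3 by 0.39 (adjusted p = 1.92e-06) and skeletal actin Acta1 by 0.16 (adjusted p = 0.00304), and the mean log2 level of the list ran from 11.23 to 11.38 over the Mef2c shRNA arrays and from 11.36 to 11.43 over the controls. Myog of that list also differed by -0.16 with Mef2c shRNA, without passing (adjusted p = 0.0506), and 5 of the 6 arrays were below its control mean. Of 7 reserve cell and myoblast markers 2 rose, the myogenic factor Myf5 (0.33, adjusted p = 0.0192) and the adhesion molecule Vcam1 (0.39, adjusted p = 0.00984). The Myf5 call ended without Mef2c shRNA array 5 (log2 difference 0.29, adjusted p = 0.05004). The Vcam1 call ended without control arrays 4 and 6 (adjusted p = 0.0817) and in the unequal-variance test (0.0528). The mean of this list ran from 8.40 to 8.57 against 8.28 to 8.48 in controls. With Nup210 shRNA 3 of the 10 myotube markers fell, Myh3 (-0.20), the creatine kinase Ckm (-0.39) and the fusion factor Mymk (-0.14, adjusted p = 0.0044, and 0.0716 with Nup210 shRNA arrays 2, 4 and 5 omitted). The list mean ran from 11.26 to 11.34 over the Nup210 shRNA arrays, each below every control array. Of the reserve and myoblast markers Myf5 rose (0.66) and Sdc4 fell (-0.27), with a list mean of 8.34 to 8.52. Cd34, a surface marker of quiescent satellite cells, was below the control mean in all 6 arrays of each shRNA group without passing (-0.31 with Nup210 shRNA, adjusted p = 0.0873; -0.29 with Mef2c shRNA, adjusted p = 0.0905). Of 6 smooth muscle and pericyte markers Cspg4 was the call in each comparison, -0.45 with Nup210 shRNA and -0.35 with Mef2c shRNA (adjusted p = 0.00054 and 0.0030). The part of these shifts in the Notch gene differences was not tested. Of the endothelial, haematopoietic and adipocyte markers, 1 of 8, 1 of 6 and 1 of 5 averaged above the background guide, Pecam1, Cdh5, Ptprc and Adipoq among those below it, and none was called in either comparison with control.

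The genes whose level followed a Notch gene most closely over the 18 arrays were listed for Heyl and Jag1, the members with the smallest p over the 3 groups, among 11938 genes above background. For Heyl they were Fstl1, a secreted follistatin-like glycoprotein (Pearson r = 0.96), Mef2c itself (0.95), Gpn3 (0.95) and the matrix protein Fbln2 (0.95). For Jag1 they were Taf1b (0.94), Pgm2 (0.93), Anapc5 (0.93) and Sdhc (0.93). The arrays fall into shRNA groups, which raises such values; with group means removed, r was 0.54 to 0.77 for the first set and 0.71 to 0.79 for the second. These are descriptions over 18 arrays that share their groups and carry no test.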

How the data were processed

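Per the labels, total RNA of 18 C2C12 samples, 6 per shRNA group, was purified with Trizol and columns before array hybridization. The authors deposited log2 values, 1 per probe set. The submitters' processing notes name RMA and Partek; versions, settings and the build were not given in the sources used here. Such processing gives all arrays a similar distribution and shrinks the differences of genes near background. Of 41345 probe sets, 23521 had 1 gene symbol in the platform annotation, 1814 several and 16010 none; the last 2 classes were left out. Entrez identifiers matched RefSeq's GRCm38.p6 gene table for 23328 and changed 0 symbols.

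One limma model (version 3.58.1, R 4.3.3) covered all 18 arrays with a mean per group and no covariate, with Benjamini-Hochberg adjustment over 22180 genes; the median standard error of a log2 difference was 0.080, and the number of arrays limits the precision. On simulated data for Mef2c against control shRNA on 22180 genes the fit recovered 29.9% of changes of 0.25, 79.1% of 0.5 and 97% of 1 on the log2 scale, with 3.52% of calls false. The simulation changed 67, 67 and 66 genes at those sizes, with independent normal noise. In the data 2386 genes were called in that comparison, so these rates need not hold for the data. The numbers were not used as pairs in this model because nothing in the labels ties same-numbered arrays. Same-numbered arrays deviated together by r from -0.18 to 0.22, with 6 of 18 pairs over 0.1. A replicate block was fitted as an alternative, and its calls are given in the last section. The 10 genes, the pathway and marker lists and the tests were chosen with earlier results of these data known. The text names all 10, the 3 largest called differences per direction among the other pathway genes in each comparison, and the 4 genes most correlated with each of the 2 members of smallest F-test p; Nrarp, Hes5, Eogt with Mef2c shRNA, Numb, Nedd4, Ep300, Myc and Col5a1 with Mef2c shRNA, Adam17, Maml2, Aph1a and Pofut1 with Nup210 shRNA, Notch4, Hes6 and the single ligands and markers were named after their values were seen. Alternatives were a replicate block, only the groups compared, median centring, quantile normalization done again, omission of dim genes, the average of a gene's probe sets, a trended robust prior, array weights, an unequal-variance test, a threshold of 0.01 and leaving out arrays.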

Additional observations from a re-analysis of the deposited data

Results flagged for a closer look

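In 3 of the 30 sets of 6 arrays (10 genes in 3 groups) 1 array stood far from the other 5, measured as its gap to the nearest array over the whole range, with a critical ratio of 0.625; chance gives about 1 in 20. For Jag1, Mef2c shRNA array 5 was low at 6.69, with the others from 7.04 to 7.21 (ratio 0.678). The fall of Jag1 without that array was 0.28 on the log2 scale. Control array 2 was low for Jag1 as well, at 7.25 against 7.41 to 7.50 (ratio 0.662). For Notch2, Mef2c shRNA array 5 was high at 10.56, with the others from 10.36 to 10.43 (ratio 0.648).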

How the results depend on the processing

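Over 30 alternatives Notch1, Notch3, Hes1 and Heyl kept their falls with Mef2c shRNA past the threshold in every alternative at an adjusted p under 0.05. At a threshold of 0.01 the genes of the 10 called for Mef2c shRNA against control were Notch1, Jag1, Hes1 and Heyl (5.87% of all genes). Notch3 was lost there (adjusted p = 0.014). Without control arrays 4 and 6 they were Notch1, Notch3, Hes1 and Heyl (6.4%). The number of called genes of the 10 was thus 4 in both settings, and 4 to 8 over all alternatives. For Nup210 shRNA against control it was 2 with the replicate block (Jag1 and Hey1, adjusted p = 0.0219 for Hey1) and with dim genes left out (Jag1 and Notch3, 0.0454), 0 without Nup210 shRNA arrays 2, 4 and 5 (2.54% of all genes), and 1 in the others. With the replicate block there were 8 for Mef2c shRNA (Notch2 added as a rise, 0.00904) and 8 between the shRNA groups (7 higher with Nup210 shRNA, and Notch2 at -0.12, adjusted p = 0.0471). Over all genes the block called 10%, 12.9% and 15.9% for Nup210 shRNA, Mef2c shRNA and the direct comparison, beside 8.16%, 10.8% and 14%. With dim genes left out, 18.1%, 23.2% and 27.9% of the remaining genes were called in those comparisons. As a hint from the data, 22 of 36 array and group pairs correlated best with their own number, where 1 in 6 would do so by chance; the labels do not tie the numbers to a shared batch. Leaving out 1 array gave 6 to 8 for Mef2c shRNA, 1 in each case for Nup210 shRNA and 6 in each case between the shRNA groups. Signs turned only for uncalled differences of Nup210 shRNA from control: Rbpj to -0.014 with median centring and -0.010 with averaged probe sets, Dll1 to -0.011 with averaged probe sets and -0.042 without control arrays 4 and 6, and, without Nup210 shRNA arrays 2, 4 and 5, Notch2 to -0.020, Dll1 to -0.021 and Hes1 to 0.018. Leaving out 1 array moved Rbpj between -0.0093 and 0.034 and Dll1 between -0.010 and 0.064. Dll1 passed between the shRNA groups in 5 alternatives, with adjusted p from 0.0149 to 0.0433. The cause of these changes was not tested. The alternatives for genes outside the 10 were added after seeing the data.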
